A study of Homo sapiens with 6 samples.

Results

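The 9 human PAX genes, PAX1 to PAX9, were followed through 6 lists of peaks from sequential ChIP-seq (reChIP-seq) in NCI-H661 cells, an established line from a large cell carcinoma of the lung. The members are the 9 protein-coding genes that carry a PAX symbol with a number in the GENCODE v44 annotation of hg38, 9 of 20015 protein-coding genes, and a peak was assigned to a gene when it touched 1500 bp either side of any of its transcript starts. In a reChIP, chromatin pulled down with 1 antibody is released and pulled down again with another, so that the fragments sequenced have passed through both. There were 3 groups of 2 libraries: K4-K119 (H3K4me3 first, then H2AK119ub), K119-K4 (H2AK119ub first, then H3K4me3), and IgG-IgG (rabbit IgG in both rounds, the control). All 6 libraries came from untreated parental cells of this 1 line, at 1000000 cells and 0.5 µg antibody per reChIP, and nothing in the labels says that replicates were separate cultures. The comparison between orders asks whether a promoter is recovered whichever mark is captured first.

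PAX genes encode transcription factors that bind DNA through a paired domain and direct the making of organs in the embryo. Most are silent in most adult tissues and become active in a few lineages, such as the eye, the kidney, B cells, the thyroid, muscle and the teeth. H3K4me3 marks the starts of active genes, while H2AK119ub is laid down by Polycomb repressive complex 1 (PRC1), which is best known at the CpG-rich promoters of silent developmental genes, PAX genes among them. The family is divided by its other domains into PAX1 and PAX9, PAX2, PAX5 and PAX8, PAX3 and PAX7, and PAX4 and PAX6, and the results are given in these subgroups.

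Only PAX6 had promoter peaks of 10 reads or more in all 4 reChIP libraries, and the other 8 genes ranged from such peaks in 3 libraries (PAX2, PAX5) to none in any (PAX4, PAX8). A peak was kept when its log2 fold over scaled input, as the authors' caller gave it, was above 1 and its FDR below 0.05. Kept peaks of the replicates that shared over 25% of the width of each were joined into reproducible peaks, and the 2 orders were merged likewise into reciprocal regions. By this rule 2 of the 9 PAX genes, PAX1 and PAX6, had a reciprocal region at a promoter, beside 20.9% of all protein-coding genes. A reproducible K4-K119 peak lay at 4 of 9 (PAX1, PAX2, PAX5 and PAX6), beside 33.0%, and a reproducible K119-K4 peak at 2 of 9 (PAX1 and PAX6), beside 30.0%. No PAX gene had a reproducible IgG-IgG peak, which lay at 0.0400% of protein-coding genes. These shares of the family lie near the shares of all genes, and with 9 genes nothing particular to the family is read from them.

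**Figure D1:**
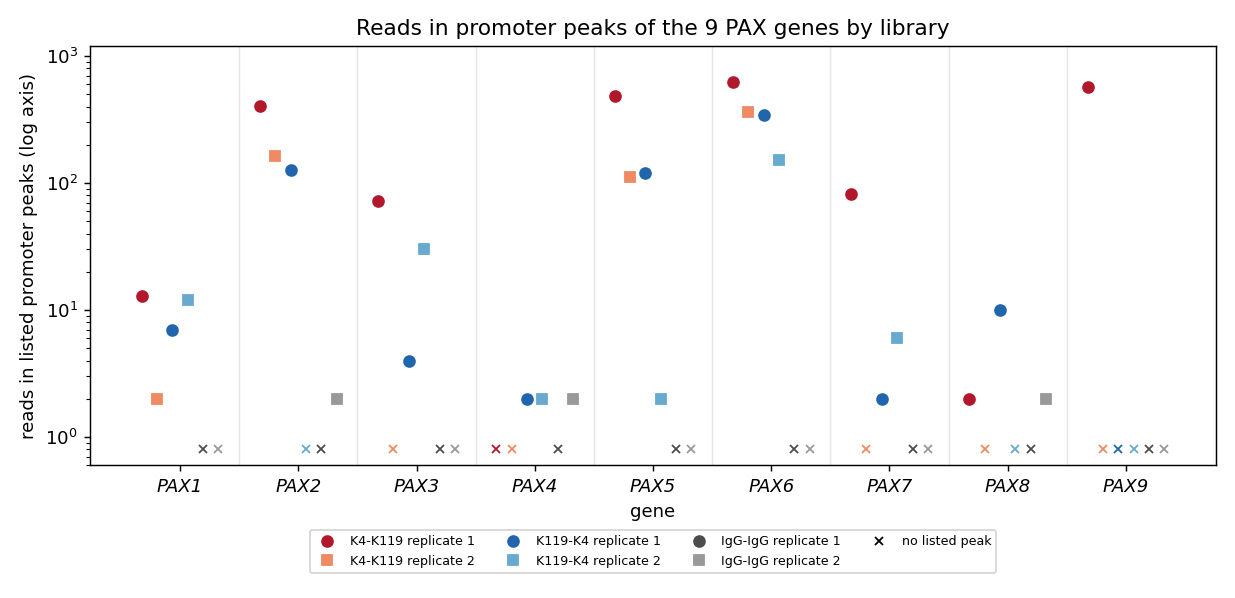
Reads in all listed promoter peaks of each PAX gene (log axis), by library. Circles are replicate 1, squares replicate 2 and crosses libraries with no listed peak, which is not a count of 0. PAX6 lies between 151 and 627 reads in the 4 reChIP libraries, while PAX9 has 568 reads in K4-K119 replicate 1 and no peak elsewhere.

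The lists held 68 peaks at PAX promoters, and their sizes fell far apart. In the reChIP libraries 23 peaks had 10 reads or more, and 20 of these held an annotated start of the gene. The other 42 reChIP peaks had fewer than 10 reads, and 7 of them held a start. IgG-IgG replicate 1 listed no peak at any PAX promoter, while 10.3% of protein-coding genes had a kept one. IgG-IgG replicate 2 listed 3, of 2 reads each, at PAX2, PAX4 and PAX8, beside 10.7% of protein-coding genes. With 9 genes nothing particular to the family is read from these counts. A peak of 2 reads at a PAX promoter therefore occurred in the control too, and the members below are described by their larger peaks. A kept peak of 10 reads or more lay at 7 of 9 PAX genes in K4-K119 replicate 1 (70.6% of protein-coding genes), at 2 of 9 in replicate 2 of that order (29.7%), and at 1 of 9 in replicate 1 (39.4%) and replicate 2 (26.4%) of K119-K4. No protein-coding gene had one in either IgG-IgG library (0%).

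The 4 reChIP libraries differed in a way that touches each of these counts. Kept peaks held 1977663 and 749681 reads in the K4-K119 libraries, 1469517 and 805233 in the K119-K4 libraries, and 58980 and 65433 in the IgG-IgG libraries. The factor by which the caller scaled 1 input read, recovered from the reads, input reads and fold of each peak, was 0.328 in K4-K119 replicate 1 and between 3.62 and 4.74 in the other 3 reChIP libraries. A peak with the same reads and input thus had a fold 11.0 to 14.4 times higher in K4-K119 replicate 1 than in these 3, and that library kept 104200 of its 104207 listed peaks. Where a library lists no peak, its read count is unknown.

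To show what kind of sequence lay under the peaks, 5 windows of 300 bases are printed 5′ to 3′ in the direction of the gene, from 250 bases before a start to 50 after it, with each CpG in capitals. They are the PAX6 window inside the stretch covered in all 4 reChIP libraries (chr11:31809910-31810209, minus strand), the PAX2 window at the canonical start (chr10:100745332-100745631, plus strand) and the window at the PAX5 internal start (chr9:37026526-37026825, minus strand), both under peaks of 3 libraries, the PAX9 window at the canonical start, under a peak of 1 library (chr14:36661610-36661909, plus strand), and the PAX4 window, under none (chr7:127618093-127618392, minus strand). The PAX5 sequence was read from hg38 and the others from RefSeq's GRCh38.p14 promoter windows, which held 8 of the 9 members in 19 windows, all identical to hg38.
PAX6: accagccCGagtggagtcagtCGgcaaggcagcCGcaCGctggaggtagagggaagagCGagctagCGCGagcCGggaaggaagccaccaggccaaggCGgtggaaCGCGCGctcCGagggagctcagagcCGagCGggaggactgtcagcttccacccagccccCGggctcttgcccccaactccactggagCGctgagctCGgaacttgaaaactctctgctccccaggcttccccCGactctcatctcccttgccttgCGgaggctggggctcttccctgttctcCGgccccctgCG
PAX2: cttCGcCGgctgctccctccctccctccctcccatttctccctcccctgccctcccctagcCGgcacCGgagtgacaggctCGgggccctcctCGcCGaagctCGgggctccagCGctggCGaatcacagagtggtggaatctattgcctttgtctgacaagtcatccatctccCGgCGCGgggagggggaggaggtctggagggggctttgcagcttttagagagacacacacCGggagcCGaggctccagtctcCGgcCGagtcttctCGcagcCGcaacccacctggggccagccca
PAX5: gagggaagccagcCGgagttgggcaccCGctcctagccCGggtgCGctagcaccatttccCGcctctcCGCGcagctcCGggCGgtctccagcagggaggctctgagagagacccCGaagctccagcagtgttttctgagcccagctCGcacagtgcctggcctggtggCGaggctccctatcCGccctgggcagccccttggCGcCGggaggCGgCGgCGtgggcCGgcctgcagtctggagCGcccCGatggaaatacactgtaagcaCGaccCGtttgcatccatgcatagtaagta
PAX9: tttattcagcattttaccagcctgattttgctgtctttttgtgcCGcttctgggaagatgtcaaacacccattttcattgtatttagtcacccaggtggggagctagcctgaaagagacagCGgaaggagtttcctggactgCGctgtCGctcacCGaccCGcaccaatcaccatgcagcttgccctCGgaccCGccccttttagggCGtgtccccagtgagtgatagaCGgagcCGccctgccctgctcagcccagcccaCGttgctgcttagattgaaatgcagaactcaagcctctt
PAX4: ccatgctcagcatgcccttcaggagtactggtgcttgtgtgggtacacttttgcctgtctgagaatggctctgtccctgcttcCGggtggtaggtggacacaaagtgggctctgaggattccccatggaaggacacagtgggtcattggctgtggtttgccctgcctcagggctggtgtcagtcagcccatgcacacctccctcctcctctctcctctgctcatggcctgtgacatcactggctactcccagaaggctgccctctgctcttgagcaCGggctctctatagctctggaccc
These windows hold 22, 19, 23, 12 and 2 CpGs in the order printed. The median over the 35116 RefSeq promoter windows was 14 CpGs, and 96.0% of them held at least 1 CpG. The PAX4 window has the fewest of the 5. The PAX8 window at the canonical start, not printed, had 13 CpGs, 1 more than that of PAX9, and no peak of 10 reads in any library.

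CpGs were also counted in the 1001 bp centred on each annotated start of the family. At the canonical starts PAX4 had 4 CpGs and PAX8 had 34, and the other 7 genes lay between 54 (PAX9) and 87 (PAX2), around the median of 66 CpGs over the canonical starts of all protein-coding genes. Starts whose windows overlapped were taken as 1 group, which gave 22 groups over the 9 genes. The 11 groups touched by a reChIP peak of 10 reads or more had a median of 76 CpGs at their richest start, with a range of 23 to 95. The other 11 groups had a median of 19, with a range of 5 to 70. The 23 is the third PAX9 group, whose window the 503-read PAX9 peak touched only at its edge, with no start of that group inside. The next lowest was 67, at the canonical PAX9 group. Taking the richest start also favours groups with many starts, such as the first PAX6 group with 64. The ranges overlap: the third PAX5 group, far inside the gene, had up to 70 CpGs with no peak above 2 reads, and the PAX8 canonical group had up to 66 with no peak above 4 reads. Over all protein-coding genes the median was 96 CpGs at the 4180 genes with a reciprocal region and 58 at the 15835 without. Groups of 1 gene share their locus and are no independent points, so no test was made.

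PAX6, which directs the formation of the eye, parts of the brain and the endocrine pancreas, carried the most reads of the family. Its gene lies on the minus strand of chromosome 11 with 66 annotated starts in 23509 bp of promoter window, against a median of 5 starts and 6471 bp per gene, so that it had more room than most genes to meet a peak. Listed promoter peaks held 627 and 361 reads in the K4-K119 libraries, against 343 and 151 reads in the K119-K4 libraries, and there was no PAX6 peak in either IgG-IgG library. The reads of each K4-K119 library were above those of both K119-K4 libraries before any scaling for depth. Summed over the 4 reChIP libraries, PAX6 had 1482 reads, more than 98.5% of protein-coding genes, a sum that takes no account of length.

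In K4-K119 replicate 1 a single peak of 623 reads spanned 10000 bp (chr11:31808301-31818300), from -6978 to 3021 bp around the canonical start (negative values lie upstream), over exons 1 and 2 of the canonical transcript. K4-K119 replicate 2 divided nearly the same stretch into peaks of 162, 23 and 174 reads, and the last of these, the most upstream, was not kept at a log2 fold of 0.42. K119-K4 replicate 1 had 242 reads over 4200 bp at the canonical start and 99 reads over 2000 bp further upstream. K119-K4 replicate 2 had 144 reads over 2100 bp, all downstream of the canonical start, and a peak of 5 reads. The reciprocal region was the whole 10000 bp and held 35 of the 66 starts. The stretch covered by a larger peak in all 4 reChIP libraries was 1500 bp (chr11:31809501-31811000), with 6 starts inside, and it holds the PAX6 window printed above. The region is thus the outline of the widest library, and the reproducible K119-K4 peak covered 4800 bp of it. PAX6 had no reciprocal region without K119-K4 replicate 1, with a log2 fold above 2 or with an overlap over 50% of both peaks, and kept it without each of the other 3 libraries.

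Other annotated genes start inside the kept PAX6 peaks. PAUPAR, a long non-coding RNA on the opposite strand, had 12 starts inside the K4-K119 replicate 1 peak, 3 inside the 242-read K119-K4 replicate 1 peak and 8 inside the 99-read one. ENSG00000285283, an annotated protein-coding gene with no symbol on the same opposite strand, had 2 starts in the K4-K119 replicate 1 peak and 1 in each of these K119-K4 replicate 1 peaks. Peaks carry no strand, so the reads cannot be divided among these genes. Over the 6866 protein-coding genes with a kept promoter peak in all 4 reChIP libraries (34.3% of the 20015), the 3 nearest to PAX6 by Euclidean distance of log2 reads in kept promoter peaks, per 1000000 reads in kept peaks, were ENSG00000285283 at 0.0277, which counts the same peaks, TMUB1 at 0.25 and RGMB at 0.303. On this scale, which takes no account of length, the K4-K119 libraries had 317 and 249 at PAX6, against 233 and 188 in the K119-K4 ones. At TMUB1 the values were 299 and 283 for K4-K119, against 250.4 and 174 for K119-K4. The 174-read PAX6 peak that was not kept is left out here. With all listed peaks, a count added after the data were seen, K4-K119 replicate 2 had 482 at PAX6. The nearest were then ENSG00000285283, FASTK at 0.331 and PRICKLE4 at 0.371, so that TMUB1 and RGMB were no longer among them. FASTK in this count and TMUB1 in the first had the same value in K119-K4 replicate 1, 250.4. Whether FASTK and TMUB1 share peaks was not tested.

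**Figure D2:**
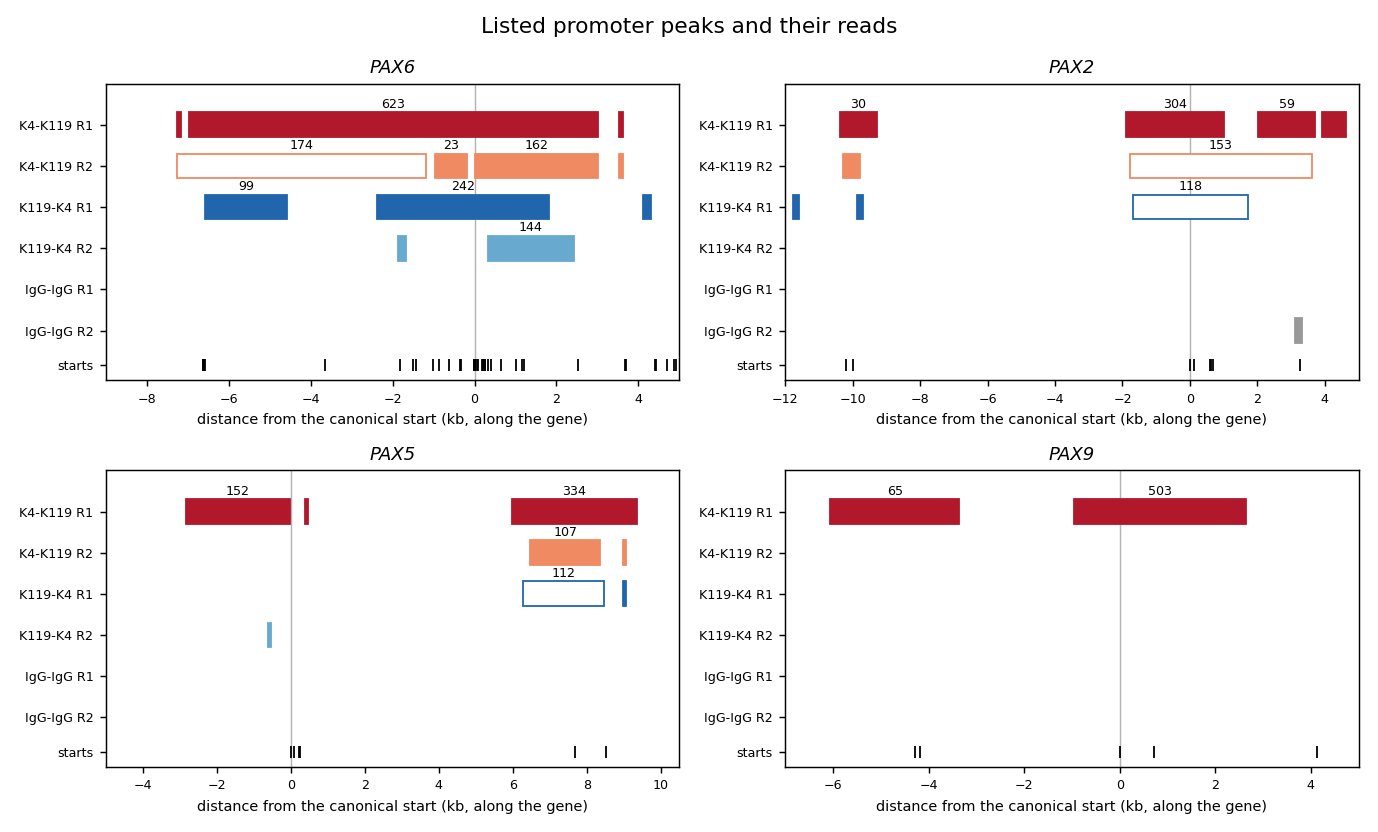
Listed promoter peaks of PAX6, PAX2, PAX5 and PAX9 by distance from the canonical start (kb, positive into the gene), 1 row per library, with annotated starts as ticks. Filled bars were kept, open bars fell at or below a log2 fold of 1, and numbers give reads where there were 10 or more. PAX6 is covered in the 4 reChIP libraries, PAX2 and the internal PAX5 starts in 3, and PAX9 in 1.

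PAX4, which takes part in the making of insulin-producing beta cells, shares the full homeodomain of PAX6 but had almost nothing. It had no promoter peak in either K4-K119 library, 1 peak of 2 reads in each K119-K4 library and 1 peak of 2 reads in IgG-IgG replicate 2, none of which overlapped. The reChIP libraries thus listed no larger peak at PAX4 than the control.

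PAX2, a factor of the kidney and the optic nerve, had large peaks in 3 of the 4 reChIP libraries and yet no reciprocal region. The K4-K119 libraries listed 402 and 162 promoter reads and K119-K4 replicate 1 listed 126, while K119-K4 replicate 2 listed no peak. IgG-IgG replicate 2 had a single peak of 2 reads. At the canonical start the peaks were 304 reads with 16 input reads in K4-K119 replicate 1, 153 with 22 in K4-K119 replicate 2, and 118 with 19 in K119-K4 replicate 1, and these 3 share 2700 bp (chr10:100743901-100746600) with 5 starts inside. The fold filter kept only that of K4-K119 replicate 1: the log2 fold was 5.85 there, while the K4-K119 replicate 2 peak had 0.82 and the K119-K4 replicate 1 peak 0.39. The reproducible K4-K119 peak of PAX2 is a different one, at the 2 upstream starts (-10186 and -9979 bp from the canonical one), with 30 reads in replicate 1 and 9 in replicate 2 (log2 fold 1.19). K119-K4 replicate 1 had 5 reads there.

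PAX5, which holds B cells to their identity, had its peaks at an internal pair of starts more than at its gene start. At the internal starts the K4-K119 libraries had 334 and 107 reads and K119-K4 replicate 1 had 112, over a shared 1900 bp (chr9:37025901-37027800) that holds the start 7693 bp downstream of the canonical one, and K119-K4 replicate 2 had no peak. The K119-K4 replicate 1 peak fell just short of the filter at a log2 fold of 0.98, while that of K4-K119 replicate 2 passed at 1.44 and joined that of replicate 1 in a reproducible peak. With no K119-K4 replicate 2 peak at these starts, no reproducible K119-K4 peak formed there with the fold filter or without it. At the gene start K4-K119 replicate 1 had 152 reads over 2800 bp that ended at -33 bp from the canonical start. Upstream of that start, the only other peak touching the promoter window was 1 of 2 reads in K119-K4 replicate 2. Further upstream, outside the window, K4-K119 replicate 2 had kept peaks of 12 and 5 reads, the first inside the 152-read peak. There K119-K4 replicate 1 had 29 reads, over part of the 152-read peak, and K119-K4 replicate 2 had another 2. With an overlap over 25% of either peak in place of both, or of 1 bp, PAX5 gained a reciprocal region of 3400 bp (chr9:37034301-37037700), formed with K119-K4 peaks of 29 and 2 reads that lie outside the promoter window. A kept peak in all 4 reChIP libraries lay at 3 of 9 PAX genes (PAX1, PAX5 and PAX6), beside 34.3% of protein-coding genes. PAX5 counts among them through peaks of 2 and 3 reads in K119-K4 at places that do not match. Neither IgG-IgG library had a PAX5 peak.

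PAX8, a factor of the thyroid and the kidney, had 1 listed peak of 2 reads in K4-K119 replicate 1 and none in K4-K119 replicate 2, 4 peaks with 10 reads in all in K119-K4 replicate 1 and none in K119-K4 replicate 2, and 1 peak of 2 reads in IgG-IgG replicate 2. The largest, of 4 reads, held the canonical start. PAX8 therefore stood with PAX4 and apart from PAX2 and PAX5, the other members of its subgroup. 

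PAX3 and PAX7, which mark the neural crest and the precursors and stem cells of skeletal muscle, had a promoter peak of moderate size in K4-K119 replicate 1. PAX3 had 64 reads with 11 input reads there, over 2000 bp with 8 starts inside, and no peak in K4-K119 replicate 2. K119-K4 replicate 1 had only 2 peaks of 2 reads at PAX3, and K119-K4 replicate 2 had 30 reads with 5 input reads over the same starts, not kept at a log2 fold of 0.73. PAX7 had peaks of 67, 11 and 4 reads in K4-K119 replicate 1, the largest of them over its 3 starts, no peak in K4-K119 replicate 2, and peaks of 2 reads in the K119-K4 libraries (1 in replicate 1 and 3 in replicate 2). At both genes, then, the larger kept peaks came from a single library. Neither gene had a peak in IgG-IgG. The start of CCDC140, annotated as a long non-coding RNA on the opposite strand, lies inside the PAX3 peak of K4-K119 replicate 1.

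PAX1, which works in the part of the somite that forms the vertebrae, had a reciprocal region of 700 bp (chr20:21705401-21706100) that rests on few reads. The peaks behind it had 13 and 2 reads for K4-K119, against 5 and 4 for K119-K4, with 0 input reads under each. With no input read, the fold is set by the stand-in the caller uses for 0, and every such peak passed the filter. No stretch was covered in all 4 reChIP libraries, since the K4-K119 replicate 2 peak lies downstream of both K119-K4 peaks. In all, PAX1 had 13 and 2 listed reads for K4-K119, against 7 and 12 for K119-K4, and no IgG-IgG peak. With at least 5 reads asked of each peak, PAX1 lost the region and PAX6 kept it, while 20.4% of protein-coding genes had one. The PAX1 region was also lost with at least 1 input read asked, where each peak had to share over 50% of its width, with same-numbered libraries of the 2 orders overlapped first, and without K4-K119 replicate 1.

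PAX9, which is needed for teeth, the palate and the thymus, had promoter peaks in a single library. K4-K119 replicate 1 had 503 reads over 3600 bp at the canonical start (chr14:36660901-36664500) and 65 reads over 2700 bp at the upstream starts, and the other 5 libraries listed no PAX9 peak. Per length, the larger of these was the highest of the PAX peaks in that library, at 140 reads per kb, against 105 for the PAX2 and 98.2 for the internal PAX5 peak and 62.3 for PAX6. A kept peak of 10 reads or more in K4-K119 replicate 1 and in no other library was found at 5 of 9 PAX genes (PAX1, PAX2, PAX3, PAX7 and PAX9), beside 26.6% of protein-coding genes. Of these, PAX2 had peaks of 153 and 118 reads and PAX3 a peak of 30 reads in other libraries, which failed only the fold filter. This rule was set after the values were seen.

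PAX9 also differed from the other members in its input. The larger peak had 83 input reads, 23.1 per kb, more than 99.9% of the 15476 promoter peaks of 10 reads or more in that library, whose median was 4.80 per kb. The smaller had 12.6 per kb, more than 98.6% of them. The other PAX peaks of that size in K4-K119 replicate 1 had between 0 (PAX1) and 5.52 (PAX2) input reads per kb. High input was shared by the surroundings of PAX9: the 9 peaks of 1000 bp or more and 10 reads or more within 250 kb, the PAX9 peaks included, had 12.6 to 24.8 input reads per kb, and the 13065 such peaks on other chromosomes had a median of 4.78. At the input scale of K4-K119 replicate 2, 83 input reads correspond to 328 reads. At those of K119-K4 replicates 1 and 2 they correspond to 393 and 301 reads. These values hold for a peak over the same 3600 bp, and a narrower one would have fewer input reads under it. The part of the input in the missing PAX9 peaks was not tested.

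**Figure D3:**
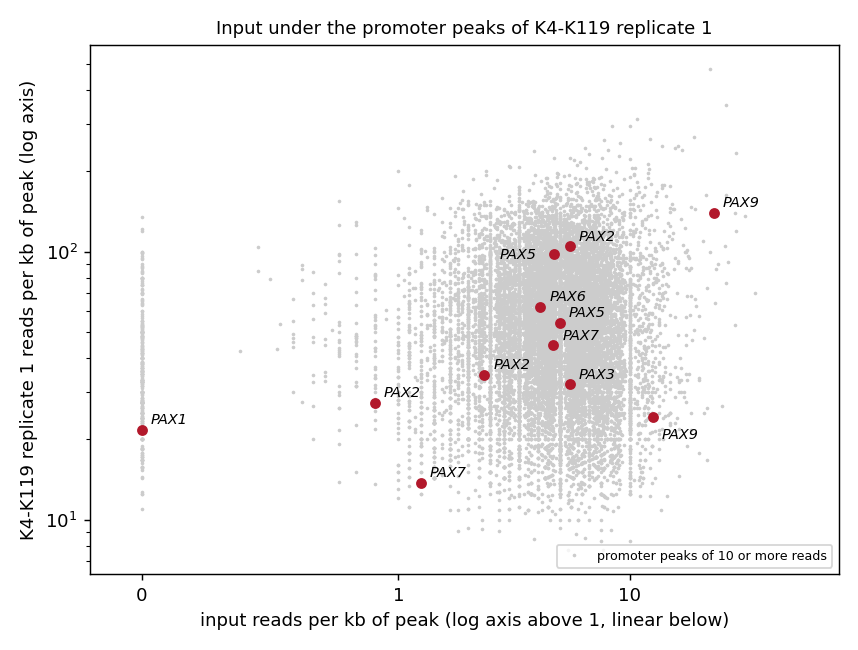
Reads per kb (log axis) against input reads per kb (log axis above 1, linear below) for promoter peaks of 10 reads or more in K4-K119 replicate 1, all protein-coding genes in grey and the 12 PAX peaks in red. The PAX9 peaks lie at 12.6 and 23.1 input reads per kb, right of the other PAX peaks, which end at 5.52.

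Without the fold filter the same PAX genes, PAX1 and PAX6, had a reciprocal region, and 30.2% of protein-coding genes had one. Among PAX peaks of 10 reads or more, 5 were not kept, with log2 folds of 0.39 (PAX2), 0.42 (PAX6), 0.73 (PAX3), 0.82 (PAX2) and 0.98 (PAX5), all outside K4-K119 replicate 1, and the lowest kept one was that of PAX5 in K4-K119 replicate 2, at 1.44. In K4-K119 replicate 1 the lowest fold of such a peak was 2.54, at PAX9. Had that library been scaled as K4-K119 replicate 2 was, a calculation added after the data were seen, its PAX3 peak would have had a log2 fold of 0.56 and its PAX9 peaks 0.62 and -1.05, below the filter, and the PAX2, PAX5, PAX6 and PAX7 peaks would have stayed above it. With this scale the same 2 PAX genes, PAX1 and PAX6, had a reciprocal region. Only peaks with input reads were rescaled, so the PAX1 peak, with 0 input reads, kept its log2 fold of 14.66. The calculation could therefore not change the call of PAX1. The lists do not say why the factors differ.

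**Figure D4:**
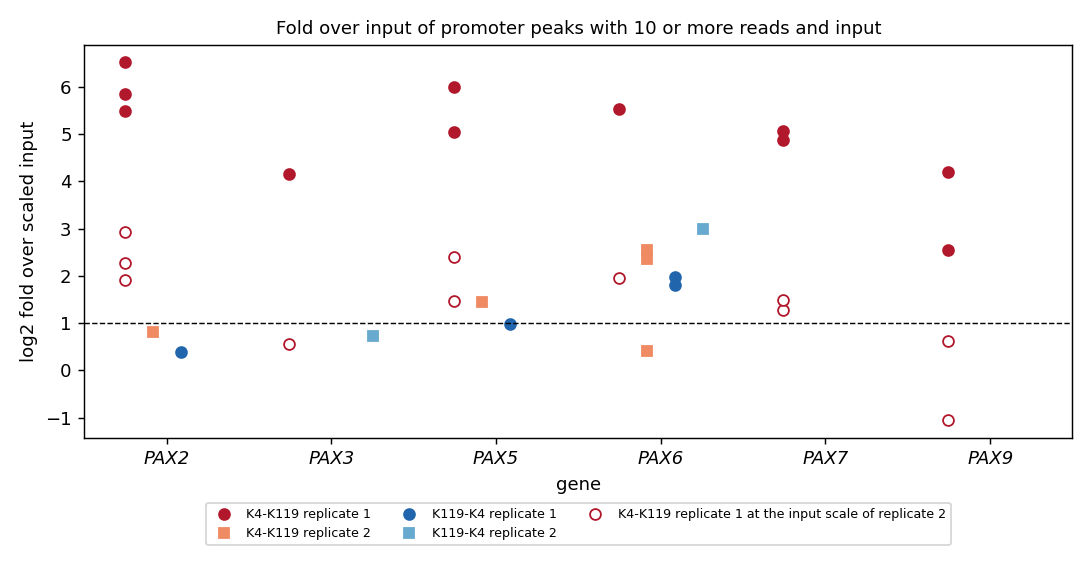
The caller's log2 fold over scaled input of PAX promoter peaks with 10 reads or more and at least 1 input read, by gene and library. Open circles give K4-K119 replicate 1 at the input scale of K4-K119 replicate 2, and the dashed line is the filter at 1. Filled K4-K119 replicate 1 points lie at 2.54 or above, and the points of the other libraries between 0.39 and 2.99.

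The orders were compared by edgeR's quasi-likelihood test on the reads of listed promoter peaks, over the 8510 protein-coding genes with a listed peak in all 4 reChIP libraries, which included 3 PAX genes. No gene was called at a Benjamini-Hochberg adjusted p of 0.05, neither higher (0%) nor lower (0%) in K4-K119, although 1086 had an unadjusted p below 0.05, and DESeq2 called 190 higher and 309 lower. Without K119-K4 replicate 1, which leaves 1 library in that order, edgeR called 303 higher and 2 lower. PAX6 had a log2 fold of K4-K119 over K119-K4 of 0.68 ± 0.20 (SE), with an unadjusted p of 0.0207 and an adjusted p of 0.319 in edgeR. Over the alternatives its adjusted p ran between 0.0413 (DESeq2) and 1 (limma on reads per kb of peak), and in the last the fold was -0.30. That alternative changes both the scale and the test, and its values were not scaled for library depth. The reads were summed over peaks called in each library by itself, which covered 10200 and 10000 bp at PAX6 in the K4-K119 libraries, against 6400 and 2400 bp in the K119-K4 ones. Per kb covered, PAX6 had 61.5 and 36.1 reads for K4-K119, against 53.6 and 62.9 for K119-K4. These values overlap between the orders but were not scaled for depth. Over the genes tested the K4-K119 libraries held 1459290 and 681948 reads, against 1288930 and 514755 in the K119-K4 ones. The fold of the sums is no measure of density, and the unscaled values per kb do not compare density between the orders.

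PAX5 had a log2 fold of 2.11 ± 1.05 (edgeR adjusted p = 0.469), over 6300 and 2300 bp in the K4-K119 libraries, against 2700 and 100 bp in the K119-K4 ones, where the K119-K4 replicate 2 value is 2 reads at another start than the rest. Without K119-K4 replicate 1 that order is this 1 library, the spread comes from the K4-K119 pair alone, and the PAX5 fold was 5.88 (edgeR adjusted p = 0.0247). PAX1 had a log2 fold of -1.23 ± 1.09 (adjusted p = 0.652), which became 0.04 without K119-K4 replicate 2. In the edgeR test on all 4 libraries no PAX gene differed between the orders at an adjusted p of 0.05, and with 2 libraries per order the p-values measure the spread between these libraries. The other 6 PAX genes lacked a listed peak in at least 1 of the 4 libraries and were not tested.

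PAX proteins act with homeobox factors such as SIX4, EYA phosphatases and DACH corepressors in a network that shapes the eye, muscle and kidney. Of 14 genes of this network and PAX partners, 5 had a reciprocal region (SIX3, SIX4, SIX5, DACH1 and PAXIP1), beside 20.9% of protein-coding genes. SIX3, a factor of the forebrain and eye, had 1122 and 662 reads in the K4-K119 libraries, against 829 and 590 in the K119-K4 ones. DACH1 had 193 and 69 reads with K4-K119, against 139 and 68 with K119-K4, and PAXIP1, whose protein is a partner of histone H3K4 methyltransferases, had 265 and 96 with K4-K119, against 336 and 159 with K119-K4. None of the 4 EYA genes in the list had a region, and each had between 28 and 155 reads in K4-K119 replicate 1 and no listed peak in K4-K119 replicate 2. Of 9 textbook targets of PAX factors, 1 had a region: MITF, the melanocyte factor that PAX3 activates, with 152 and 84 reads for K4-K119, against 114 and 72 for K119-K4. The other 8 had at most 25 listed reads in any reChIP library.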

How the data were processed

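The authors sequenced 6 reChIP-seq libraries of NCI-H661 cells and, per the labels and the study's methods, used Trim Galore 0.6.6 for trimming, BWA 0.7.13 for alignment to hg38, and SAMtools 1.9, Picard 2.6.0 and deepTools 3.5.0 on the alignments. EPIC2 called peaks in each library against a genomic input, with a bin of 100 bp. The deposited lists give for each peak the count of reads and of input reads, an FDR (an adjusted p-value, also called a q-value) and a log2 fold over scaled input, and these columns were used as deposited. Input counts were equal in all 1378 pairs of reChIP peaks at identical coordinates with input, as counts from 1 shared input would be. Reads outside peaks are not in the lists, which give the depth of a library only as its reads in peaks. The lists do not say how the input factor of each library was set, and whether it follows total depth was not tested. PCR duplicates cannot be judged from the lists.

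The filter asked for a log2 fold over 1 together with FDR under 0.05, and only the autosomes, X and Y entered. Replicates overlapping by more than 25% of both peaks were merged, and then the 2 orders, after the study's methods, which ask for this overlap without saying of which peak; no blacklist was applied here. Genes and starts came from GENCODE v44 (hg38), without the Y copies of genes shared by X and Y. Coordinates are 1-based. Reads per gene and library were compared between orders with edgeR 4.0.16 (TMM, quasi-likelihood, two-sided, without the replicate block, tested on simulated data), and with DESeq2 1.42.0 and limma 3.58.1 (log2 of reads per kb plus 1) as alternatives. The limma values were not scaled for library depth. Other alternatives changed the filters, the overlap, the promoter width or left out a library. R 4.3.3 and Python 3.11.15 were used.

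The members and gene lists were chosen with earlier results of these data known. The genes named were all 9 PAX genes, any gene with a start inside a kept PAX promoter peak, genes of both lists with a region, and the 3 genes nearest to PAX6 in scaled promoter reads; the EYA genes, as a set, were named after their values were seen. Some members of the lists are not reported here by name.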

Additional observations from a re-analysis of the deposited data

How the results depend on the processing

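PAX genes with a reciprocal region numbered 2 (PAX1 and PAX6) in the report. The number was 1 with a log2 fold above 2 (PAX1), beside 6.27% of protein-coding genes. It was 1 (PAX6) with a minimum of 5 reads (20.4%), of 10 reads (19.5%) or of 1 input read (18.7%). With an overlap over 50% of both peaks it was 0, beside 15.9%. It was 3, PAX5 added, with an overlap over 25% of either peak or of 1 bp, beside 4529 and 4544 protein-coding genes, and 2 without the fold filter. In the replicate block, where same-numbered libraries of both orders were overlapped first, it was 1 (PAX6), beside 4154 protein-coding genes. Leaving out 1 library gave 1 to 2, beside 21.0% to 27.2% of protein-coding genes. Without K4-K119 replicate 1 the region of PAX1 was lost, and without K119-K4 replicate 1 that of PAX6. Protein-coding genes with a region numbered 1255 with a log2 fold above 2, against 4180. PAX genes with a kept promoter peak in all 4 reChIP libraries numbered 3, beside 34.3% of protein-coding genes, and 1 (PAX6) with the same minimums. With 1 start per gene the number was 1 as well, but the gene was PAX1, and PAX6 was lost. It was 2 (PAX1 and PAX6) within 500 bp of a start and 5 within 2500 bp. For these other settings the share of protein-coding genes was not counted. Network genes with a region numbered 5. They numbered 2 with a log2 fold above 2 (6.27% of protein-coding genes) and 3 with an overlap over 50% (15.9%). For the orders, DESeq2 called 190 protein-coding genes higher and 309 lower, with 1 PAX gene (PAX6, log2 fold 0.69). Without K119-K4 replicate 1, edgeR called 303 higher and 2 lower, with 1 PAX gene (PAX5), and leaving out any other library gave 0; the range was 0 to 303 higher, 0 to 2 lower and 0 to 1 PAX gene. The log2 fold of PAX5 without 1 library ran from 1.31 to 5.88, that of PAX6 from 0.51 to 0.87 and that of PAX1 from -2.20 to 0.0400, its value without K119-K4 replicate 2. The PAX1 fold was 0.49 over its reciprocal region and the PAX6 fold -0.30 with limma on reads per kb, not scaled for depth. The replicate block in edgeR gave log2 folds of 0.66 (PAX6), 2.65 (PAX5) and -1.05 (PAX1), called no PAX gene and changed no call. Same-numbered libraries deviated together with a correlation of 0.04 over genes, and the numbers were not taken as pairs in the main test. With 2 libraries per order this value cannot show whether the numbers mark batches. The study's methods report replication in complete batches for its differential tests, and the labels here name no batch. Without TMM the median log2 fold of all genes tested was 0.15, against 0.05 with it. The causes of these changes were not tested. PAX1, PAX4 and PAX8 had no peak above 13 reads, so the counting error of their values is wide.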
